A study of Mus musculus with 12 samples.

Results

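The core of the epidermal differentiation complex, a run of neighbouring genes for the proteins of the outermost epidermis, was followed in RNA-Seq counts of mouse keratinocyte cultures. Its members were taken by position. All rows of the count table on chromosome 3 with a start between 92000000 and 93500000 on the mm10 genome were used, which gave 69 of the 21947 rows. Keratinocytes make up most of the epidermis, and these were primary cultures from newborn BALB/c mice, grown in medium with 0.05 mM calcium and set to differentiate at a final 0.12 mM. The 12 libraries fell into 2 batches. Batch 1 held 2 libraries without siRNA, 2 with a pool of non-targeting short interfering RNAs (siControl) and 2 with a pool directed against the suprabasin gene *Sbsn* (siSbsn). Batch 2 held 3 siControl and 3 siSbsn libraries, numbered 1 to 3 and 4 to 6. The cultures with siRNA received 75 pmol, and RNA was harvested 48 hours after transfection. The protocol speaks of triplicates for each condition, while the labels give 2 libraries of each condition in batch 1. The sources used here do not state what differed between the batches beyond the label, or whether libraries of one condition came from separate cultures, so p-values measure the spread between these libraries, which may be technical.

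During cornification the keratinocyte replaces its plasma membrane with the cornified envelope, a shell of proteins joined by transglutaminases. Loricrin, involucrin, the small proline-rich proteins (the *Sprr* family) and the late cornified envelope proteins (the *Lce* family) are precursors of this shell, and filaggrin, trichohyalin and their relatives, which join an S100-like domain to long repeats, bind and align keratin filaments. Their genes lie side by side, are mostly built of a short non-coding first exon and an exon with the whole coding sequence, and many of them are switched on when calcium rises.

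Along the chromosome the single-gene rows ran in the order *Pglyrp3*, DQ564077, DQ688935, *Lor*, *Prr9*, *Lelp1*, AK137696, *Sprr2a1*, *Sprr2a3*, *Sprr2b*, *Sprr2d*, *Sprr2e*, *Sprr2f*, *Sprr2g*, *Sprr2h*, *Sprr2i*, *Sprr2j-ps*, *Sprr2k*, *Sprr1b*, *Sprr3*, *Sprr1a*, *Sprr4*, *Ivl*, *Smcp*, *Lce6a*, *Lce1a1*, *Lce1b*, *Lce1a2*, *Lce1c*, *Lce1d*, *Lce1e*, *Lce1f*, *Lce1g*, *Lce1h*, *Lce1i*, *Lce1j*, *Lce1k*, *Kprp*, *Lce1l*, *2310050C09Rik*, *Lce3a* to *Lce3f* in alphabetical order, *Crct1*, *Lce1m*, *Gm4858*, *Crnn*, *Flg2*, *Flg*, *Hrnr*, *Rptn*, *Tchh* and *Tchhl1*. Of these 56 rows, 53 matched a gene name of the mm10 annotation, 26 on the plus and 27 on the minus strand, and 43 had a longest transcript of 2 exons. The DQ564077 and DQ688935 rows, of 31 and 32 bases, lie within the span of the *Pglyrp3* row. The *Sprr2* genes and *Lce3b* to *Lce3f* were read from the plus strand, while *Lor*, *Ivl*, *Sprr1a* and *Sprr1b* were read from the minus strand.

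The other 13 rows were merged, each joining the names of a pair of genes by a comma. They were DQ688935,DQ564077, Lelp1,AK137696, Sprr2d,Sprr2h, Sprr2e,Sprr2h, Sprr2g,Sprr2f, Sprr2g,Sprr2i, Sprr2g,Sprr2j-ps, Sprr2h,Sprr2k, Sprr2j-ps,Sprr2i, Sprr1a,Sprr1b, Lce1d,Lce1e, Lce1k,Kprp and Lce3b,Lce3c. Reads of such a row cannot be given to one gene. The merged rows were nearly empty, with 28 counts in total over the 12 libraries against 1069258 in the single rows, and no more than 4 in any library. Sprr2d,Sprr2h, Sprr2g,Sprr2f, Sprr2h,Sprr2k and Lce1d,Lce1e were listed at 0 in every library. None of the 13 passed the filter on low counts, so they entered no test.

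Stretches of the gene starts are shown because the families below differed in the short motifs before their starts. A relation of these motifs to the levels was not tested. Each sequence is the 250 bases before the RefSeq start of the gene on GRCm38.p6, the reference release of the mm10 build, written 5′ to 3′ on the strand of the gene. Capitals mark TATAAA, a core promoter element that places the start of transcription, and TGANTCA, where N is any base. TGANTCA is a loose form of the site bound by AP-1 factors, which has C or G at N. The motifs were searched on both strands.
Lor (chr3:92083143-92083392, minus strand): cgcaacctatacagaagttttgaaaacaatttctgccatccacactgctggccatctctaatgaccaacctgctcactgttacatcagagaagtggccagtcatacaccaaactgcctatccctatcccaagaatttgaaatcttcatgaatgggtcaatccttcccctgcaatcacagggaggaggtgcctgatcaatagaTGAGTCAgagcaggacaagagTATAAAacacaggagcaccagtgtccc
Ivl (chr3:92573736-92573985, minus strand): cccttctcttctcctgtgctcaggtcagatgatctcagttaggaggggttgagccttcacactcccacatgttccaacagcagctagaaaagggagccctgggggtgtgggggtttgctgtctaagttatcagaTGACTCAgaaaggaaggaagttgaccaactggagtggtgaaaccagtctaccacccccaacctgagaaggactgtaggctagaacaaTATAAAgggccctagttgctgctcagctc
Sprr1a (chr3:92485882-92486131, minus strand): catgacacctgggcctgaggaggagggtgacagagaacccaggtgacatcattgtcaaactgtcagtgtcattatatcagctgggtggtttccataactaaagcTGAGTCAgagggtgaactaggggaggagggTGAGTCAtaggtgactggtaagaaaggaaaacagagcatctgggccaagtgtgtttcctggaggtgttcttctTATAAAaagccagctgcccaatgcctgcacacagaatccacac
Sprr2e (chr3:92351893-92352142, plus strand): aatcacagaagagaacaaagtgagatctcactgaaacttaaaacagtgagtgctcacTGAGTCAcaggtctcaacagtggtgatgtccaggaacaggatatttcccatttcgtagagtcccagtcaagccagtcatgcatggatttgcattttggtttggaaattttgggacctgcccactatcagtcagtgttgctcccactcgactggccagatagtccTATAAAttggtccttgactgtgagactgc
Lce1h (chr3:92765066-92765315, minus strand): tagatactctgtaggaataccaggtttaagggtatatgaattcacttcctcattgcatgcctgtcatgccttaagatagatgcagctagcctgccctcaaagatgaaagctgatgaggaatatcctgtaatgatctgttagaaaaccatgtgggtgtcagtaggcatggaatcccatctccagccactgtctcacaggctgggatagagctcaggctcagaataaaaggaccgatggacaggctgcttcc
Flg (chr3:93273296-93273545, plus strand): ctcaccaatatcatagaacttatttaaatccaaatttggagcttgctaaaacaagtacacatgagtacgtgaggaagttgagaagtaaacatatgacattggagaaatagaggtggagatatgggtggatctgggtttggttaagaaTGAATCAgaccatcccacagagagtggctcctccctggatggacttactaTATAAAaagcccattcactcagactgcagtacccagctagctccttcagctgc

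A promoter sequence was matched by symbol for 46 of the 56 single rows. TATAAA was found in 12.4% of all 32851 promoters of the same length and in 22 of the 46. TGANTCA was found in 6.75% of all promoters and in 17 of the 46. By family, the second motif was spread unevenly. TGANTCA stood before both *Lor* and *Ivl*, before 9 of 13 *Sprr* genes and before 5 of 7 genes of the S100-fused type, and before 0 of 20 *Lce* genes. In *Crnn*, *Flg2*, *Flg*, *Rptn* and *Tchhl1*, the S100-fused genes with a match, N was A or T, as it was in *Sprr1b*. These matches lack the C or G of the AP-1 site. TATAAA stood before 10 of 13 *Sprr* and 4 of 20 *Lce* genes. Of the *Lce* matches, those of *Lce1d* and *Lce1m* lay 30 and 29 bases before the start. Those of *Lce6a* and *Lce3e* stood on the other strand, at 218 and 243 bases. The *Lor* start had TATAAA 27 bases and TGANTCA 48 bases before it, and *Sprr1a* had TGANTCA at 146 and again at 116 bases. AACCNGTT, the core of the site of grainyhead-like factors, was in 1.79% of all promoters and before 1 of the 46, that of *Rptn*. A match describes the letters in these windows and was not tested as a binding site.

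Some members are near-identical copies, and the authors dropped reads that aligned to more than one place. The first 60 coding bases of the *Sprr2a* copies and of their neighbour *Sprr2b* are shown for this reason, with capitals where a base differs from *Sprr2a1*. They were read from the GENCODE transcripts of mm10.
Sprr2a1 (chr3:92219092-92219151, plus strand): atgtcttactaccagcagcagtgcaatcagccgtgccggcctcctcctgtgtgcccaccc
Sprr2a2 (chr3:92253905-92253964, plus strand): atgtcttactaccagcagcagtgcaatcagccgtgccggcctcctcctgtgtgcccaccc
Sprr2a3 (chr3:92288588-92288647, plus strand): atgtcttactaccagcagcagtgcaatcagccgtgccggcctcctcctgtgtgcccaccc
Sprr2b (chr3:92317449-92317508, plus strand): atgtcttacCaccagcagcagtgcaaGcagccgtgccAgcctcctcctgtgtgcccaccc

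The row named *Sprr2a1* spans both *Sprr2a1* and *Sprr2a2*, whose coding sequences of 249 bases do not differ, and 96.3% of the 50-base windows of the *Sprr2a1* transcript also occurred in another transcript. This row had 9 counts in all 12 libraries together. *Sprr2a3* differs from *Sprr2a1* at 3 of 249 coding bases and shared 61.1% of its windows, and it was counted at 28.9 CPM (counts per 1000000 counts of normalized library size), a value that its shared windows make uncertain. Among the *Lce3* genes *Lce3d* shared 49.3%, *Lce3f* 48.0%, *Lce3e* 43.7% and *Lce3c* 35.7% of windows, and the *Lce1* genes shared at most 27.1%. Their levels are uncertain to that extent. The *Flg* row, from 93277568 to 93280313, covers only part of the annotated gene, from 93273523 to 93293686, so no level of *Flg* per length is given.

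The siRNA target was checked first. Without siRNA *Sbsn* lay at 1697 and 1231 CPM. The siControl libraries of batch 1 held 1189 and 1356 CPM and those of batch 2 held 371, 332 and 459 CPM. In siSbsn of batch 2 it was at 124, 125 and 121 CPM, below every siControl library of that batch. In siSbsn of batch 1 it was at 696 CPM in replicate 2 but at 1965 CPM in the library labelled siSbsn batch 1 replicate 1, the highest of all 12, so any direction drawn from that library goes against its label. Total counts ranged from 27934836 to 49553923. The 7 keratinocyte markers (*Krt5*, *Krt14*, *Itga6*, *Itgb4*, *Col17a1*, *Krt1*, *Krt10*) summed to between 19066 and 48752 CPM in a library. Melanocyte markers summed to between 684 and 1016 CPM, fibroblast markers to between 358 and 1163 CPM, and immune and endothelial markers to at most 9.30 and 2.54 CPM, so the cultures also held some RNA of other cell types. *Col1a1* made up most of the fibroblast sum, at 261 to 902 CPM, while *Pdgfra*, *Dcn* and *Lum* reached at most 9.12, 10.4 and 0.902 CPM. The values of *Itga6*, *Itgb4*, *Pmel*, *Pdgfra* and *Cd74* came from rows that join further gene names, so these sums may hold counts of other genes. In bulk libraries like these, fewer cells of a type and less RNA per cell cannot be told apart.

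Small proline-rich genes carried most of the counts of the locus. The 69 rows together held between 0.287% and 0.466% of all counts in batch 1 and between 0.124% and 0.153% in batch 2. The *Sprr* family made up between 71.5% and 82.5% of the locus in batch 1 and between 61.6% and 68.2% in batch 2, and *Sprr1a* alone between 45.1% and 58.6%. *Sprr1a* ranked between the 17th and the 45th of all rows in batch 1 and between the 122nd and the 212th in batch 2.

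Per length, *Sprr1a* was far ahead of the other members at 1635 CPM per kilobase of its longest transcript, as a mean over 12 libraries. *Sprr1b* followed at 401, *Sprr2h* at 147, *Pglyrp3*, a secreted peptidoglycan recognition protein, at 140, *Crct1* at 95.5 and *Ivl* at 42.5 CPM per kilobase. *Lce3c* and *Lce1a1*, the most abundant *Lce* genes by CPM, were at 24.6 and 18.5 CPM per kilobase, *Tchh* was at 21.0 and *Lor* at 6.30. The order was not the same in each batch. In batch 1 *Sprr2h* was at 218 and *Pglyrp3* at 157 CPM per kilobase, and *Ivl* at 70.4 and *Tchh* at 17.6. In batch 2 *Pglyrp3*, at 124, stood above *Sprr2h*, at 76.8, and *Tchh*, at 24.4, above *Ivl*, at 14.6 CPM per kilobase. *Sprr1a* and *Sprr1b* were first and second in both. Neighbours could differ widely. *Sprr2h* lies between *Sprr2g* and *Sprr2i*, which were at 28.3 and 3.17 CPM per kilobase, and *Sprr3*, between *Sprr1b* and *Sprr1a*, was at 0.522. At the low end, 6 single rows did not pass the filter on low counts, namely DQ688935, *Lelp1*, *Sprr2a1*, *Smcp*, *Lce1j* and *Gm4858*, with between 6 and 81 counts each over 12 libraries. The filter left 50 of the 69 rows in the tests over both batches, all of them single.

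**Figure D1:**
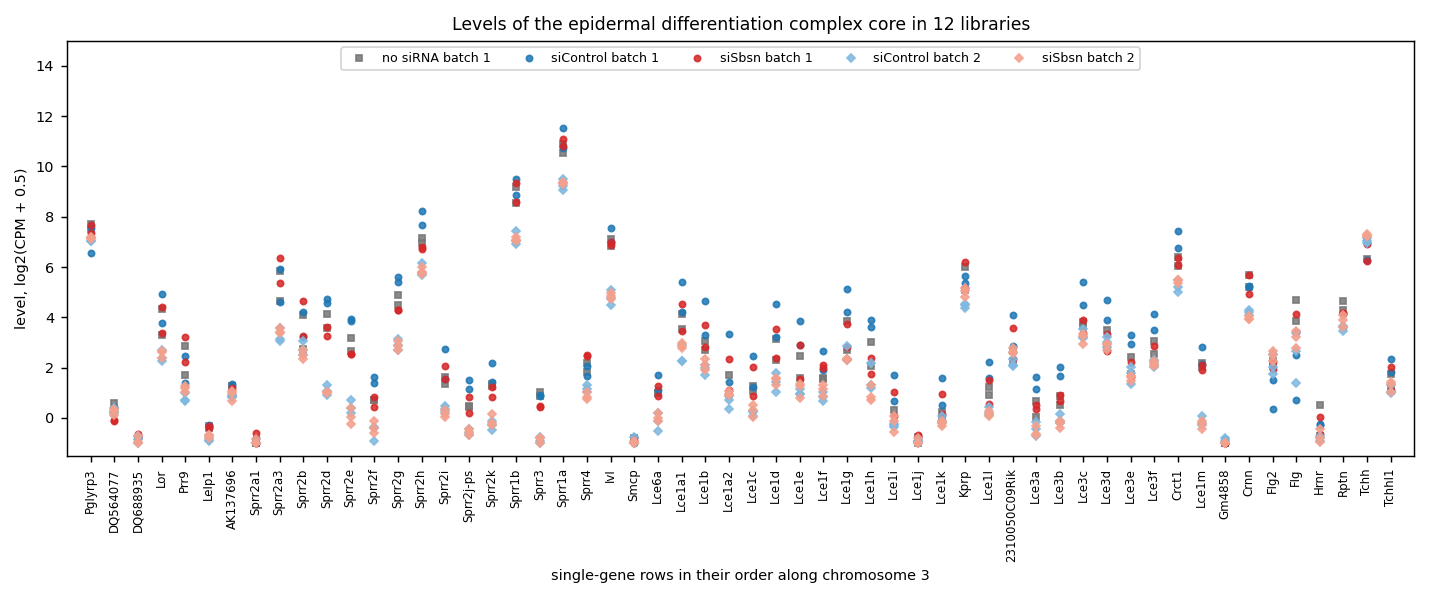
Level of each of the 56 single-gene rows, as log2 of CPM plus 0.5, in the order of their starts along chromosome 3, with 1 point per library and colours and symbols for condition and batch. The batch 2 libraries (pale diamonds) lie below the batch 1 libraries over most of the *Sprr* and *Lce* rows, and *Sprr1a* is the highest row in every library.

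Most members differed between the batches. *Ivl*, the gene of the envelope precursor involucrin, was at 135 ± 27.0 CPM (SD, n = 6) in batch 1 and at 28.1 ± 3.996 CPM (SD, n = 6) in batch 2. Its 6 libraries of batch 1 ran from 114 to 187 CPM with a median of 128, and those of batch 2 from 22.1 to 33.6 CPM with a median of 27.8. The batches did not overlap, and the log2-fold change of batch 2 over batch 1 was -2.31 (standard error, SE, of 0.15, q = 2.4e-06 in the quasi-likelihood test of edgeR on the 10 siControl and siSbsn libraries, with treatment in the model). *Lor*, the gene of loricrin, the major protein of the mature envelope, ran from 9.45 to 29.8 CPM with a median of 16.5 in batch 1 and from 4.34 to 5.99 CPM with a median of 5.21 in batch 2. It too was separated by batch, with a log2-fold change of -1.81 (SE 0.27, q = 0.00036 from edgeR).

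In the same test 43 of the 50 tested members were called lower in batch 2, at a log2-fold change beyond 0.5 and a q-value under 0.05, where 21.6% of all 13211 loci tested were. Called higher were 2 members, where 16.4% of all loci were. The median log2-fold change was -1.80 over the members and -0.02 over all loci. *Sprr2f*, *Sprr2j-ps*, *Sprr3*, *Lce3a* and *Hrnr* passed the filter through batch 1 and were too low for a test in batch 2 alone, and of the other 45 members 38 were called lower and 2 higher, with a median of -1.75. Every library of batch 2 lay below every library of batch 1, the libraries without siRNA included, for 29 of the 50 members, where 16.5% of all loci did so. Among these 29 were *Sprr2f*, *Sprr2j-ps*, *Sprr3* and *Lce3a*, which had passed the filter through batch 1. Every library of batch 2 lay above every library of batch 1 for 0 members, where 14.2% of all loci did.

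Of the *Sprr* family, whose proteins bridge the other precursors, all 11 members that could also be tested in batch 2 alone were called lower, with a median of -2.11. *Sprr2f*, *Sprr2j-ps* and *Sprr3*, let in by their counts in batch 1, were called lower as well, and with them the median was -2.37. *Sprr1a* ran from 1467 to 2975 CPM with a median of 1845 in batch 1 and from 531 to 715 CPM with a median of 637 in batch 2 (log2-fold change -1.79, SE 0.16, q = 1.5e-05 from edgeR). *Sprr1b* fell by 1.99 and *Sprr2h*, the most abundant *Sprr2* gene, by 1.54 on the log2 scale (q = 1.4e-05 and 0.00038 from edgeR). *Sprr2e*, whose start is printed above, ran from 5.36 to 14.8 CPM with a median of 7.22 in batch 1 and from 0.340 to 1.13 CPM with a median of 0.733 in batch 2. Its log2-fold change of -3.71 (SE 0.23, q = 2.1e-06 from edgeR) contrasted with -1.40 for *Sprr2b*, a gene of the same cluster. *Sprr3*, which passed the filter through batch 1, was at -4.43 (SE 0.44, q = 3.4e-05 from edgeR), a value that rests on 265 counts in the 6 libraries of batch 1 and 11 in those of batch 2.

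Of the *Lce* family, a set of late envelope proteins, all 19 members that could also be tested in batch 2 alone were called lower, with a median of -1.85. *Lce3a*, let in by its counts in batch 1, was called lower too. The *Lce1* genes had a median of -1.91, and the other 5 *Lce3* genes one of -1.14. *Lce1m*, which lies apart from the other *Lce1* genes on the far side of *Crct1*, ran from 3.23 to 6.56 CPM with a median of 3.84 in batch 1 and from 0.242 to 0.548 CPM with a median of 0.353 in batch 2, and it fell by 3.52 in log2 (SE 0.22, q = 2.1e-06 from edgeR). *Lce1a1* fell by 1.93, *Lce1g* by 1.75 and *Lce3c* by 1.16 (q = 0.00089, 0.00074 and 0.0051 from edgeR). For *Lce3c* the batches met, at 9.77 CPM as the lowest library of batch 1 and 10.98 CPM as the highest of batch 2.

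The S100-fused genes moved in both directions. Their median log2-fold change was -0.33, with 2 of 7 called higher and 3 called lower. *Hrnr*, at -1.91, was among those called lower and had passed the filter through batch 1. *Tchh*, the gene of trichohyalin, a protein of the inner root sheath of hair and of the tongue, ran from 74.7 to 137 CPM with a median of 101 in batch 1 and from 125 to 159 CPM with a median of 144 in batch 2. The ranges overlapped, and the log2-fold change was 0.51 (SE 0.16, q = 0.020 from edgeR). *Flg2*, a filaggrin relative, ran from 0.793 to 4.24 CPM with a median of 3.54 in batch 1 and from 2.87 to 5.81 CPM with a median of 4.75 in batch 2 (log2-fold change 0.84, SE 0.30, q = 0.036 from edgeR). *Flg* itself was at 12.1 ± 8.56 and 7.24 ± 3.14 CPM (SD, n = 6 each), with a log2-fold change of 0.03 (SE 0.50, q = 0.96 from edgeR). Its batch 1 mean includes the 2 libraries without siRNA, at 14.1 and 25.05 CPM, which were not in the test. After removal of the transcript-length trend from the counts of each library, *Flg2* was at -0.01 and of 48 members 0 were called higher, where 14% of all loci were, and 41 were called lower, where 19.6% were. The count called higher was 0 without siControl batch 2 replicate 1 or siSbsn batch 2 replicate 4, and 1 without siControl batch 1 replicate 1, siControl batch 2 replicate 2, siSbsn batch 1 replicate 2, siSbsn batch 2 replicate 5 or the library labelled siSbsn batch 1 replicate 1. In these fits between 14.1% and 17.9% of all loci were called higher. The count called lower stayed between 41 and 43 with any 1 library left out, where between 18.1% and 23.1% of all loci were called lower.

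Among the remaining members *Crct1*, a cysteine-rich gene between the *Lce3* genes and *Lce1m*, fell by 1.37 (q = 0.00066 from edgeR), while *Pglyrp3*, at the edge of the interval, was at 173 ± 41.9 and 138 ± 6.82 CPM (SD, n = 6 each) with a log2-fold change of -0.23 (q = 0.25 from edgeR). The DQ564077 and AK137696 transcripts and *Rptn*, the gene of repetin, were not called either.

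Genes of cornification elsewhere in the genome were read from the same test. *Abca12*, *Cebpb* and, among the markers below, *Pmel*, *Pdgfra* and *Cd74* were read from rows that join further gene names. Of 20 genes for cross-linking enzymes, scaffold proteins and related products 14 were called lower in batch 2 and 2 higher, with a median of -1.20. The transglutaminase gene *Tgm1* fell by 1.54 and *Cdsn*, the gene of corneodesmosin, by 2.47 (q = 7.3e-06 and 1.9e-06 from edgeR), and the higher ones were *Krt10* at 1.00 and the desmoplakin gene *Dsp* at 0.50 (q = 0.045 and 0.031). Of 12 transcription factors of differentiation 3 were called lower, a share near the 21.6% of all loci, and 0 higher, with *Hopx* at -2.68 and *Grhl1* at -0.83 (q = 3.4e-06 and 1.8e-05 from edgeR). Marker sums of other cells moved with the batch as well. The 5 melanocyte markers summed to between 684 and 852 CPM in batch 1 and between 964 and 1016 CPM in batch 2, with 3 of 5 called higher, and the simple epithelial keratins *Krt8*, *Krt18* and *Krt19* to between 48.3 and 104 CPM and between 13.5 and 26.4 CPM, with 3 of 3 called lower. The 5 immune markers summed to between 2.51 and 9.30 CPM in batch 1 and between 1.52 and 2.37 CPM in batch 2, with both tested ones called lower, at a median of -1.28, and with *Cd207* at 0 in every library. The 6 fibroblast markers summed to between 413 and 1163 CPM and between 358 and 420 CPM, with 2 called higher (*Dcn*, *Lum*) and 1 lower (*Col1a1*). The 3 endothelial markers summed to between 0.937 and 2.54 CPM and between 1.496 and 2.30 CPM, with 0 of 2 tested called. Their part in the result was not tested.

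**Figure D2:**
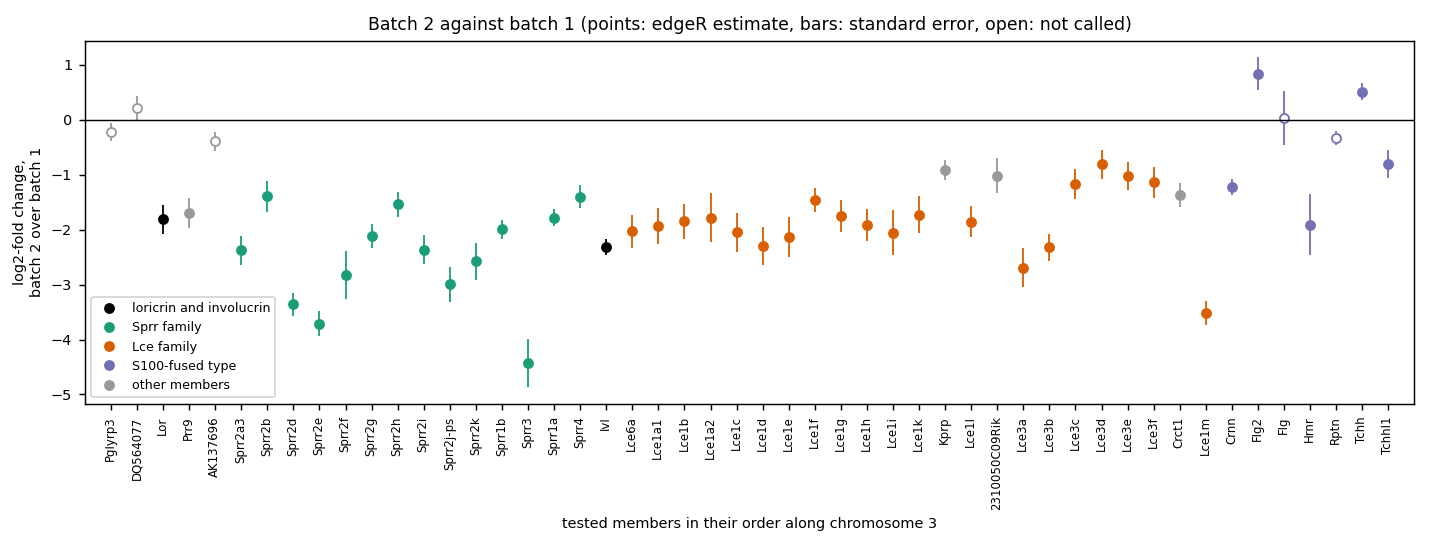
Log2-fold change of batch 2 over batch 1 for the 50 tested members in their order along chromosome 3, as the edgeR estimate with its standard error, coloured by family; filled points were called and open points were not. All *Sprr* and *Lce* points lie below 0, between -4.43 and -0.81, and the S100-fused genes at the right end lie between -1.91 and 0.84. The lowest *Sprr* point, *Sprr3*, and the lowest S100-fused point, *Hrnr*, are of members that passed the filter through batch 1.

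Whether siRNA against *Sbsn* changed the members was asked first over both batches, with batch in the model. *Sbsn* itself was at -0.96 in that test and was not called (SE 0.35, q = 0.26 from edgeR). None was called by edgeR in either direction (0% of 13211 loci called in either direction, smallest q = 0.26). At an unadjusted p under 0.05, 5 of 50 members were higher in siSbsn, where 9.55% of all loci were, and 11 were lower, where 9.38% of all loci were. The median log2-fold change was -0.24 over the members, and 0.01 over all loci. Of the 50 members 38 lay below 0, as did 49.2% of all loci. Without siControl batch 1 replicate 1 the members' median was -0.02, and with the trend on transcript length removed it was 0.02.

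The values behind these medians are given by family. *Lor* and *Ivl* were at -0.14 and -0.11 (q = 0.75 and 0.63 from edgeR) and changed sign without siControl batch 1 replicate 1. *Sprr1a* and *Sprr1b* were at -0.03 and -0.10, and *Sprr2h* at -0.51 (q = 0.89, 0.72 and 0.26 from edgeR). All 6 *Lce3* genes were below 0, with a median of -0.65, and 12 of 13 *Lce1* genes were, with a median of -0.40. The S100-fused genes had a median of 0.12. *Flg* at 1.13, *Flg2* at 0.70 and *Prr9*, the gene of a proline-rich protein, at 0.66 had the highest values with an unadjusted p under 0.05 (q = 0.26 each from edgeR), and *Lce1h* at -1.25, *Sprr2e* at -1.06 and *Lce3a* at -0.90 the lowest (q = 0.26 each). DESeq2's Wald test called *Lce1h* and *Sprr2e* lower (q = 0.0094 and 0.0074), 2 of the 48 members to which it gave a q, where it called 0.342% of loci lower, and 0 members higher, where it called 0.407% of loci higher.

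In batch 1, where *Sbsn* was at 0.04 for siSbsn over siControl (SE 0.45, q = 0.97 from edgeR), *Lce1h* was at 14.2 and 11.9 CPM with siControl, at 2.90 and 4.73 CPM with siSbsn and at 3.65 and 7.50 CPM without siRNA. Both siControl libraries stood above the other 4. The log2-fold change of siSbsn over siControl was -1.80 (SE 0.36, unadjusted p = 0.0013, q = 0.42 from edgeR in batch 1 alone). *Sprr2e* showed the same order, at 14.0 and 14.8 CPM with siControl, 5.36 and 5.38 CPM with siSbsn and 5.83 and 8.60 CPM without siRNA, and a log2-fold change of -1.44 (SE 0.29, q = 0.42 from edgeR). *Lce3c*, another late envelope gene, was at 41.7 and 21.8 CPM with siControl, 9.77 and 14.6 CPM with siSbsn and 11.97 and 13.8 CPM without siRNA.

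*Flg*, the gene of the filaggrin precursor, had the opposite order. It was at 1.12 and 5.23 CPM with siControl of batch 1, at 10.3 and 17.0 CPM with siSbsn and at 14.1 and 25.05 CPM without siRNA. Here the siControl libraries were the lowest of the 6, and the log2-fold change was 2.08 (SE 0.64, unadjusted p = 0.012, q = 0.42 from edgeR). *Flg2* went with it, at 0.793 and 2.32 CPM with siControl and 4.19 and 3.38 CPM with siSbsn, with a log2-fold change of 1.25 (SE 0.51, q = 0.42 from edgeR). The longest transcripts of *Flg* and *Flg2* have 14497 and 20803 bases, those of *Lce1h* and *Sprr2e* 706 and 647. The trend on transcript length was not removed in the fits of batch 1 alone, so its part in these opposite orders was not tested.

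Over the batch 1 locus as a whole, 10 of 51 tested members lay above 0, where 49.8% of all loci did, and 41 below, where 50.2% did, with a median of -0.67 against -0.0029 over all loci. The 20 *Lce* genes were all below 0, with a median of -1.02, and 11 of 14 *Sprr* genes were, with a median of -0.85, while the S100-fused genes had a median of 0.09. Marker sums of other cells differed between the same libraries. The fibroblast markers summed to between 413 and 426 CPM with siControl and between 488 and 1163 CPM with siSbsn, with 5 of 6 above 0 and a median of 1.03. The simple epithelial keratins summed to between 68.6 and 104 CPM and between 48.3 and 52.4 CPM, with 3 of 3 below 0 and a median of -0.91. None of these markers was called, and their part in the values of the members was not tested. edgeR called 0 members and 0 loci, with 2 members higher and 14 lower at an unadjusted p under 0.05, where 6.93% and 4.79% of the 12899 loci tested were. Both siSbsn libraries lay below both siControl libraries for 21 members, where 25.9% of all loci did, and above them for 4 members (*Flg*, *Flg2*, *Rptn*, *Sprr4*), where 25.3% of all loci did. Of 48 members with a q, DESeq2 called 6 lower (*Sprr2d*, *Sprr2e*, *Sprr2g*, *Sprr2h*, *Lce1h*, *Lce3c*) and *Flg* higher, where it called 0.228% and 1.05% of loci.

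The median of the members and the calls depended on single libraries. With any 1 library left out, *Lce1h* stayed between -2.20 and -1.46 and *Sprr2e* between -1.47 and -1.42. *Flg* stayed between 1.37 and 3.55. Without siControl batch 1 replicate 1 the median was -0.15, and without siControl batch 1 replicate 2 it was -1.09 and edgeR called 21 of 51 members lower and 3 higher, where it called 12.8% of all loci in each direction, the lone siControl library being assumed to vary like the siSbsn pair. The median was -0.58, and 1 member was called higher, where 0.076% of all loci were, when the library labelled siSbsn batch 1 replicate 1 was left out. siControl batch 1 replicate 1 was the highest of all 12 libraries for 33 of the 50 members, where it was the highest for 29.2% of all loci tested.

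In batch 2, where *Sbsn* itself fell by 1.64 (q = 0.00056 from edgeR), *Ivl*, *Lor* and *Sprr1a* lay within the spread of siControl. *Ivl* was at 22.1, 26.9 and 33.6 CPM with siControl and at 26.1, 31.0 and 28.7 CPM with siSbsn, a log2-fold change of 0.06 (SE 0.13, q = 0.86 from edgeR in batch 2 alone). *Lor* was at 4.78, 4.34 and 5.99 CPM with siControl and at 5.63, 5.87 and 4.69 CPM with siSbsn, a log2-fold change of 0.11 (SE 0.14, q = 0.75). *Sprr1a* was at 592, 531 and 715 CPM with siControl and at 644, 665 and 631 CPM with siSbsn. The siSbsn libraries of these 3 genes all fell inside the siControl range. The members' median was 0.09 over 45 tested members, against -0.01 over all loci. Above 0 lay 25 members, where 48.2% of all loci did, and below 0 lay 20, where 51.8% did.

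edgeR called 0 members in batch 2, where it called 0% of loci higher and 0.00774% lower. At an unadjusted p under 0.05, 6 members were higher, where 4.51% of 12924 loci were, and 2 lower, where 5.69% were. All 3 siSbsn libraries were above all 3 siControl libraries for 5 members (*2310050C09Rik*, *Kprp*, *Lce1a2*, *Prr9*, *Tchh*), where 9.39% of all loci did so, and below for 2 (*Crnn*, *Sprr4*), where 9.15% did. *Kprp*, the gene of a keratinocyte proline-rich protein, was at 22.1, 22.5 and 20.4 CPM with siControl and at 35.3, 27.4 and 32.5 CPM with siSbsn. Its log2-fold change was 0.56 (SE 0.10, unadjusted p = 0.00028, q = 0.32 from edgeR), and DESeq2 called it higher (q = 0.00083), 1 of the 12 members to which it gave a q, where it called 0.0114% of loci higher. Without siControl batch 2 replicate 3 edgeR called 3 of 46 members higher, *Kprp* and *2310050C09Rik* among them, where it called 0.0383% of loci higher.

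*2310050C09Rik*, a neighbour of *Kprp*, was at 3.81, 3.63 and 4.64 CPM with siControl and at 6.37, 5.49 and 5.63 CPM with siSbsn (log2-fold change 0.55, SE 0.12, q = 0.35 from edgeR). *Prr9* had a log2-fold change of 0.51 (q = 0.48) and *Tchh* one of 0.22 (q = 0.43). *Lce1h* was the lowest, at 1.80, 1.97 and 4.09 CPM with siControl and 1.15, 1.97 and 1.28 CPM with siSbsn, with a log2-fold change of -0.84 (SE 0.33, q = 0.48 from edgeR) and ranges that overlapped. *Crnn*, the gene of cornulin, had a log2-fold change of -0.22 (q = 0.46).

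**Figure D3:**
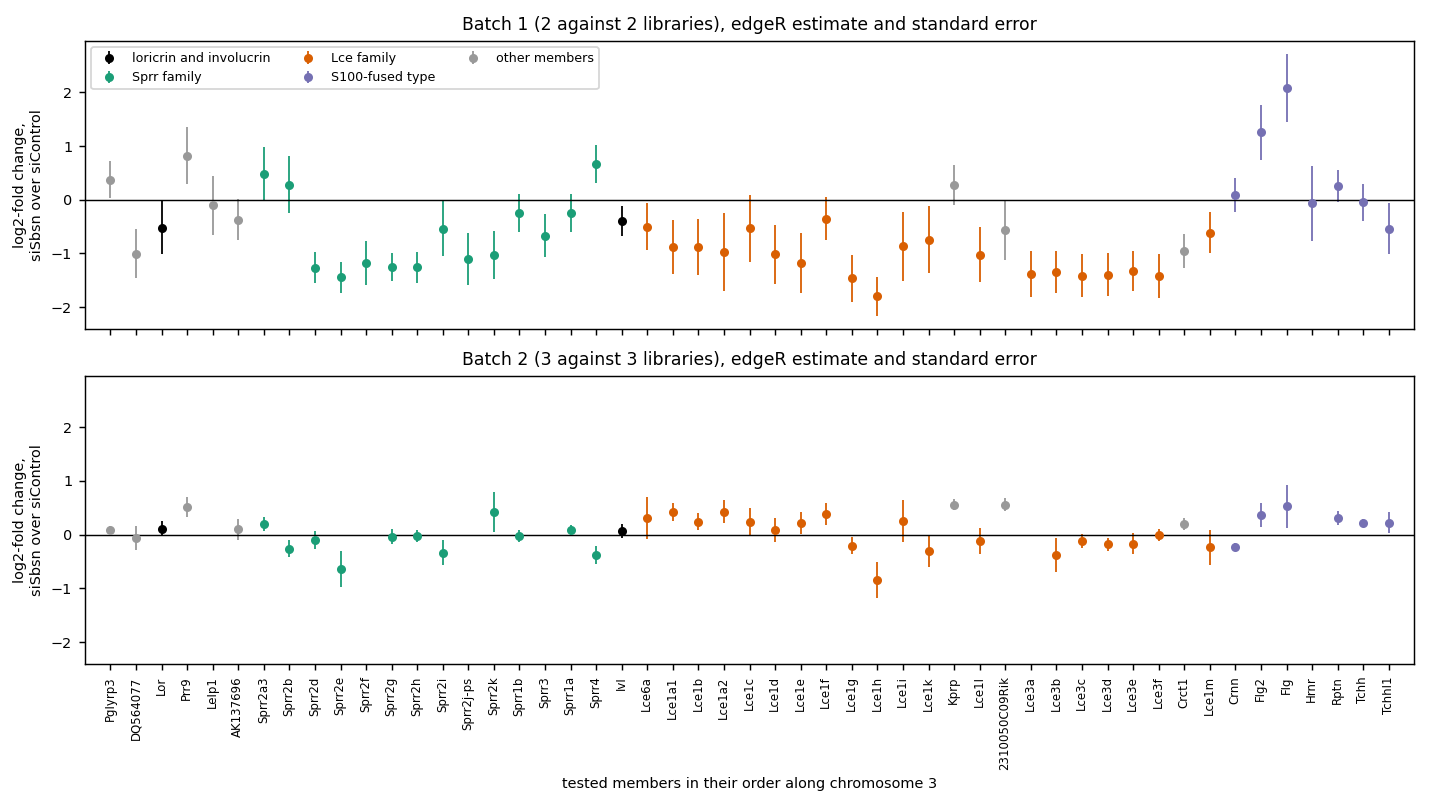
Log2-fold change of siSbsn over siControl for the tested members in their order along chromosome 3, in batch 1 (upper panel) and batch 2 (lower panel), as the edgeR estimate with its standard error and coloured by family. In batch 1 all *Lce* points lie between -1.80 and -0.35 and *Flg* at 2.08, and in batch 2 the points lie between -0.84 and 0.56.

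The difference between the batches was tested as the interaction of batch and treatment, the log2-fold change of batch 2 minus that of batch 1. Its median was 0.87 over 51 members and -0.03 over all 13419 loci tested. Above 0 lay 43 members, where 47.9% of all loci did, and below 0 lay 8, where 52.1% did. edgeR called 0 members, where it called 0% of loci in either direction (smallest q = 0.27), with 13 members higher and 1 lower at an unadjusted p under 0.05, where 7.28% and 7.56% of loci were. The values of *Lce3f*, *Sprr2k* and *Lce3c* were 1.39, 1.45 and 1.28 (q = 0.27, 0.31 and 0.28 from edgeR), and that of *Sprr4* was -1.05 (q = 0.27). DESeq2 called *Sprr2d*, *Sprr2g*, *Sprr2h*, *Lce3f* and *Crct1* higher, 5 of 48 members, where it called 0.277% of loci higher, and 0 members lower, where it called 1.07% of loci lower. Without siControl batch 1 replicate 1 the median was 0.40. Without siControl batch 1 replicate 2 edgeR called 19 of 51 members higher, where it called 15.2% of all loci, and 4 lower, where it called 19.4%. Without siSbsn batch 1 replicate 2 it called 2 higher, where it called 0.588% of loci. No member lay on the same side of siControl in every library of both batches, where 5.21% of 12559 loci lay above and 4.29% below.

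The libraries without siRNA, present in batch 1 alone, were set against siControl and siSbsn, and both comparisons share them. The siControl libraries of the first are also those of siSbsn over siControl in batch 1. *Lce1i* was at 2.74 and 1.09 CPM with siControl against 0.351 and 0.744 CPM without siRNA, a log2-fold change of 1.84 (SE 0.61, q = 0.40 from edgeR). *Lce1k* and *Lce1a2* were at 1.62 and 1.56 (q = 0.40 each). *Flg*, at -2.59 (SE 0.63, q = 0.40), and *Flg2*, at -1.32 (q = 0.40), had the lowest values. All 20 *Lce* genes lay above 0, with a median of 1.30, and all 10 tested *Sprr2* genes did, with a median of 0.90, while the S100-fused genes had a median of -0.56. The fibroblast markers summed to between 482 and 928 CPM without siRNA, above the siControl sums given before, with 5 of 6 below 0 and a median of -0.73. The simple epithelial keratins summed to between 50.4 and 54.6 CPM without siRNA, below those of siControl, with 3 of 3 above 0 and a median of 0.69. None of these markers was called, and their part was not tested. The trend on transcript length was not removed in these comparisons either.

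Over 51 tested members the median of siControl over no siRNA was 0.84, and 0.01 over all loci. Above 0 lay 40 members, where 50.4% of all loci did, and below 0 lay 11, where 49.6% did. edgeR called 0 members, where it called 0% of loci, and DESeq2 called *Flg* lower (q = 0.020), 1 of 46 members with a q, where it called 0.0625% of loci lower. At an unadjusted p under 0.05, 24 members were higher, where 5.36% of 12959 loci were, and 2 lower, where 6.64% were. Both siControl libraries lay above both libraries without siRNA for 27 members, where 27.6% of loci did, and below for *Flg*, *Flg2* and *Rptn*, where 27.5% did. Without siControl batch 1 replicate 1 the median was 0.20, and without siControl batch 1 replicate 2 edgeR called 23 of 51 members higher, where it called 12.2% of all loci, and 3 lower, where it called 11.9%. For siSbsn over no siRNA the median was 0.02, with 26 members above and 25 below 0, where 49.8% and 50.2% of all loci were, and edgeR and DESeq2 called 0 members, where both called 0% of 13141 and 18483 loci. There 1 member, *Lce1f* at 0.55 (unadjusted p = 0.049, q = 1.00 from edgeR), had an unadjusted p under 0.05, where 0.0685% of loci were higher at that p. Without siSbsn batch 1 replicate 2 that median was -0.27.

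**Figure D4:**
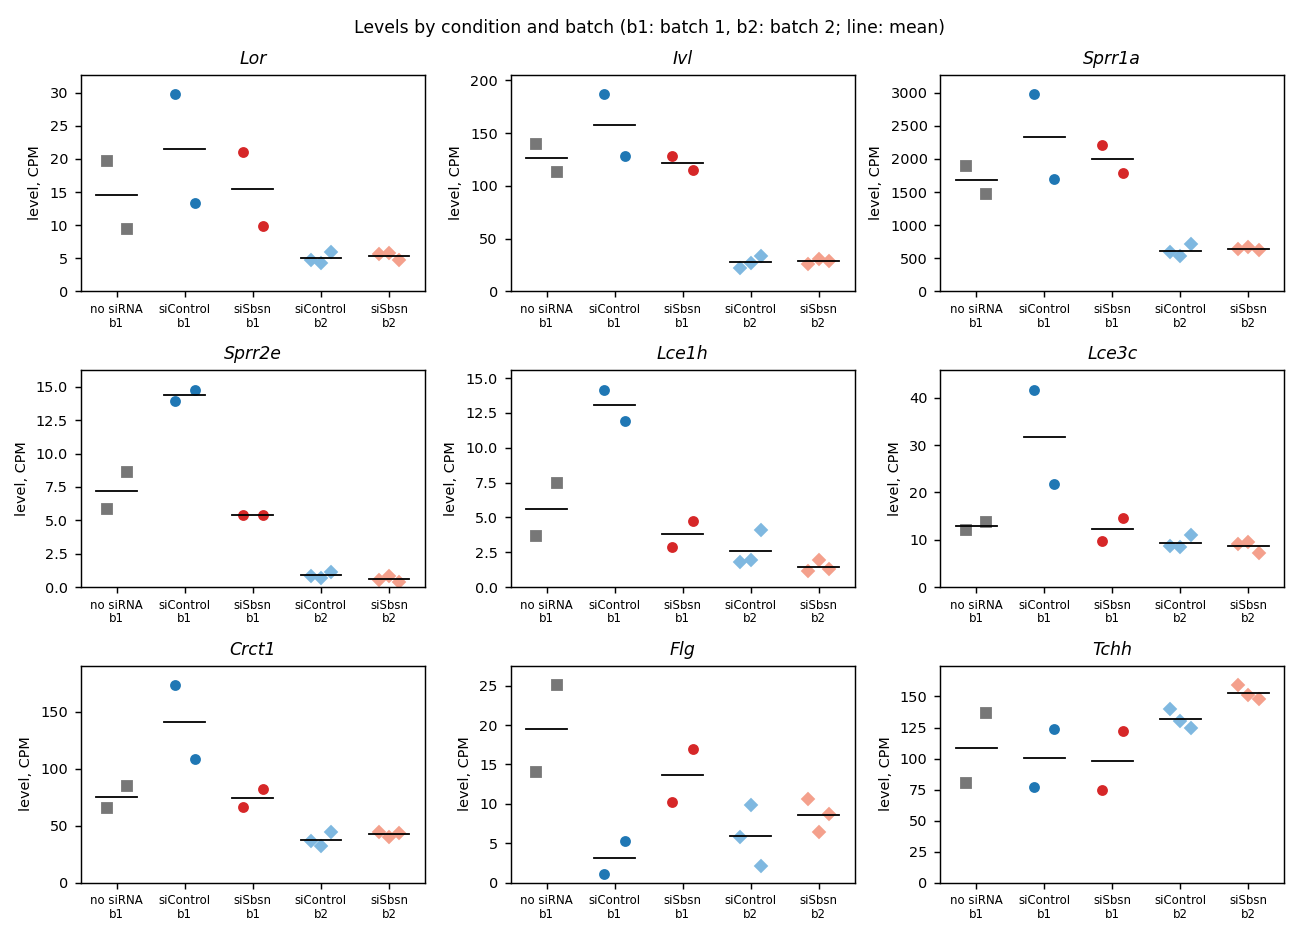
Level in CPM of 9 members in every library, by condition and batch, with a line at the mean of each group and every axis starting at 0. *Sprr2e* and *Lce1h* are highest in both siControl libraries of batch 1, *Flg* is lowest in them among the batch 1 libraries, and *Lor*, *Ivl* and *Sprr1a* are lower in all 6 libraries of batch 2.

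Within batch 1 the replicate numbers 1 and 2 carried a difference of their own in the locus. *Lor* was higher in number 1 in all 3 conditions, at 19.7 against 9.45 CPM without siRNA, 29.8 against 13.3 CPM with siControl and 21.0 against 9.84 CPM with siSbsn. *Tchh* was lower in number 1 in all 3, at 79.9 against 137, 77.4 against 124 and 74.7 against 122 CPM. The *Lce* family did not keep one direction. Its median log2 ratio of number 1 over number 2 was -0.53 without siRNA and -0.78 in siSbsn, where 2 and 3 of 20 genes were above 0, and 0.83 in siControl, where all 20 were. Over all loci the median ratio was -0.0044 without siRNA, -0.0050 in siControl and 0.0014 in siSbsn.

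**Figure D5:**
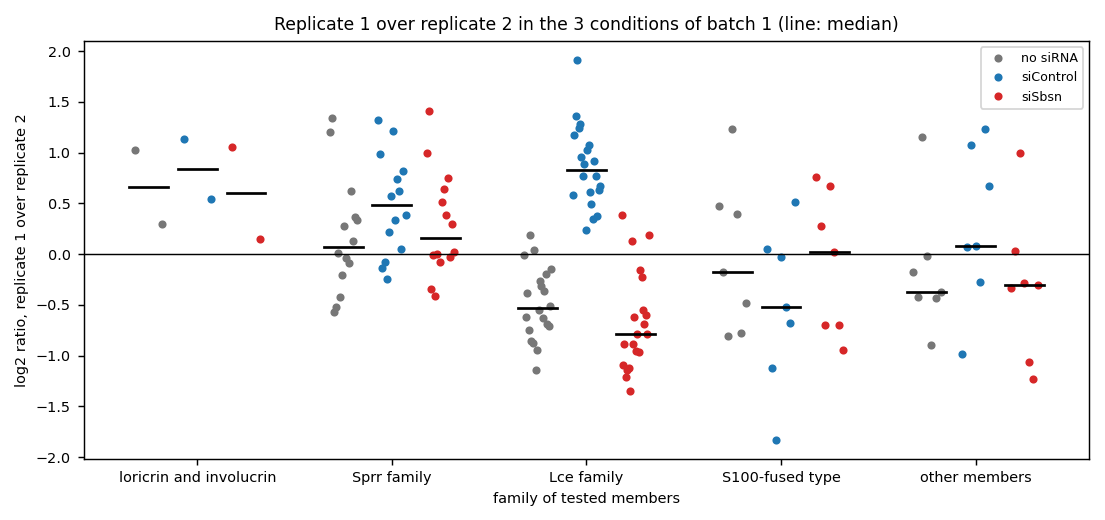
Log2 ratio of replicate 1 over replicate 2 for each tested member by family, in the 3 conditions of batch 1, with a line at the median. In the *Lce* family the siControl points lie above 0 and most points of the other 2 conditions below it, while *Lor* and *Ivl* lie above 0 in all 3.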

How the data were processed

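Libraries of keratinocyte cultures, 12 in all, were sequenced by RNA-Seq. The authors aligned reads to mm10 with STAR, kept uniquely aligned reads and counted them on UCSC KnownGene genes, and deposited whole-number counts without normalization. Some rows carry joined gene names, and the sources used here do not state how these arose. The sources used here do not state the strand setting of the counting. Row starts were raised by 1 to give coordinates on mm10. Groups came from the sample labels.

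Counts were normalized by TMM and tested across all loci that passed filterByExpr in edgeR 4.0.16 (R 4.3.3) by its quasi-likelihood test, with batch and treatment as terms. A locus was called when q (Benjamini-Hochberg) was under 0.05 and its log2-fold change beyond 0.5 either way, and for the interaction by q alone. The standard error is the absolute log2-fold change over the square root of F. CPM used TMM sizes over 12 libraries, and plotted log2 values add 0.5. DESeq2 1.42.0, RLE scaling, no filter, a lowess correction for transcript length (span 0.3), all 12 libraries, a replicate block and leaving out each library were alternatives. The tests were checked on simulated data. Lengths came from GENCODE and promoters from RefSeq (GRCm38.p6). The *Lor*, *Ivl* and *Flg* genes, the 3 most abundant of each family set, up to 3 members each way per comparison at an unadjusted p under 0.05, and all merged rows were named. Members and lists were chosen with earlier results of these data known. *Sprr2g*, *Sprr2d*, *Sprr2b*, *Sprr2i*, *Sprr3*, *Hrnr*, *Rptn*, *Sprr4* and the genes called by DESeq2 or separated between groups are named outside that rule, after their values were seen.

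Replicate numbers 1 and 2 are shared by the 3 conditions of batch 1. Same-numbered libraries deviated together from their group means, with correlations of 0.38, 0.80 and 0.46 over 13562 loci for the 3 pairs of conditions. With 2 libraries per group such correlations can also arise without a pairing, so they do not establish one. The numbers were entered as a block in an alternative fit only. The main tests of batch 1 left the replicate number out, so their SE, p and q do not use any pairing. Numbers in batch 2 are not shared by both conditions.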

Additional observations from a re-analysis of the deposited data

Results flagged for a closer look

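*Sprr4*, a single-exon small proline-rich gene at the *Ivl* end of the *Sprr* cluster, had log2-fold changes of opposite sign in the batches, neither of them called. In batch 1 it was at 3.64 and 2.66 CPM with siControl and 5.11 and 5.04 CPM with siSbsn, and in batch 2 at 1.96, 1.56 and 1.71 CPM with siControl and 1.30, 1.55 and 1.20 CPM with siSbsn. Every siSbsn library thus lay above siControl in batch 1 and below it in batch 2, as 0.764% of 12559 loci did. Of 45 members *Sprr4* was the 1 that did so, and it was picked for this pattern. In batch 2 the gap was narrow, between 1.554 CPM (45 counts) in siSbsn replicate 5 and 1.563 CPM (62 counts) in siControl replicate 2. The log2-fold change was 0.66 (SE 0.35, q = 0.44) in batch 1 and -0.37 (SE 0.17, q = 0.49) in batch 2, and their difference was -1.05 (SE 0.28, q = 0.27 from edgeR's test of the interaction). In batch 1 the siSbsn libraries also lay above the libraries without siRNA, at 4.01 and 3.06 CPM. With 1 library left out the difference ranged from -1.295 to -0.85. No group held the 4 samples needed to look for a library far from the others.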

How the results depend on the processing

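RLE scaling and the fit of all 12 libraries changed no count of called members. DESeq2 called more members than edgeR, which called 0 outside the batch comparison. It called 2 lower over both batches, 1 higher and 6 lower in batch 1, 1 higher in batch 2, 5 higher for the interaction, and 1 lower for siControl over no siRNA, where its shares of all loci were 0.342%, 1.05% and 0.228%, 0.0114%, 0.277% and 0.0625% in that order. Without the filter on low counts edgeR called 1 higher and 11 lower in batch 1, 1 higher in batch 2, and 12 higher and 1 lower for siControl over no siRNA, where it called 2.17%, 0.45%, 0.0104%, 0.268% and 1.79% of all loci in that order. With the trend on transcript length removed the median of the members was 0.020 for siSbsn over siControl, 0.54 for the interaction and -1.37 for batch 2 over batch 1, with 0 members then called higher in batch 2. The comparisons within a single batch were not fitted with that correction. Over both batches that correction put *Lor* at 0.048, *Ivl* at 0.049, *Sprr1a* at 0.26, *Sprr1b* at 0.18, *Lce1a1* at 0.23, *Crct1* at 0.048 and *Tchh* at -0.041, each with its sign turned, and *Flg2* in batch 2 over batch 1 at -0.0066.

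With each library left out in turn the median of siSbsn over siControl ranged from -0.37 to -0.019 over both batches, from -1.09 to -0.15 in batch 1 and from 0.01 to 0.15 in batch 2. That of the interaction ranged from 0.40 to 1.12, that of batch 2 over batch 1 from -1.90 to -1.48, that of siControl over no siRNA from 0.20 to 1.01 and that of siSbsn over no siRNA from -0.27 to 0.079. Members called in batch 1 ranged from 0 to 3 higher and from 0 to 21 lower, for the interaction from 0 to 19 higher and from 0 to 4 lower, for siControl over no siRNA from 0 to 23 higher and from 0 to 3 lower, in batch 2 from 0 to 3 higher, and for batch 2 over batch 1 from 0 to 2 higher. In the same fits the loci called ranged from 2 to 1700 higher and from 0 to 1699 lower in batch 1, from 0 to 2101 higher and from 0 to 2674 lower for the interaction, from 0 to 1626 higher and from 0 to 1597 lower for siControl over no siRNA, from 0 to 5 higher in batch 2, and from 1881 to 2503 higher for batch 2 over batch 1. The log2-fold change over both batches ranged from -0.27 to 0.14 for *Lor*, from -0.21 to 0.016 for *Ivl*, from -0.12 to 0.13 for *Sprr1a*, from -0.20 to 0.023 for *Sprr1b* and from -0.25 to 0.22 for *Lce1a1*. A fit that leaves 1 library in an arm assumes that it varies like the others.

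When replicate numbers entered the fit as a block, 0 members were called in each direction in all 4 comparisons fitted so, and the median was -0.17 over both batches, -0.67 for siSbsn over siControl in batch 1, 0.85 for siControl over no siRNA and 0.00028 for siSbsn over no siRNA. The block changed no call. The cause of these movements was not tested. Members with few counts, such as *Sprr3* and *Hrnr* in batch 2, cannot show small changes at this depth.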
